A study of Caenorhabditis elegans with 3 samples.

Results

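Occupancy of EGL-27 at 8 genes that regulate the responses to low oxygen, unfolded protein, oxidants and heat was described from ChIP-seq peak lists of whole Caenorhabditis elegans larvae. The 8 genes were a list out of 19985 protein-coding genes, chosen with earlier results of these data known. For hypoxia it held hif-1, egl-9, vhl-1 and rhy-1, and for unfolded protein in the endoplasmic reticulum (ER) xbp-1 and ire-1. It also held skn-1 for oxidants and hsf-1 for heat. Each gene was searched for peak summits from 5000 bp upstream of its 5′ end to its other end, a window of 6163 to 17668 bp. All 3 biological replicates were mixed-sex larvae of the first larval stage (L1) from strain OP177, which carries the mutation unc-119(ed3) on chromosome III and the integrated transgene wgIs177. That transgene supplies a GFP fusion of EGL-27, described for replicate 3 as a GFP-FLAG tag at the C terminus. The labels give replicates 1 and 2 a stock-centre source and a 150 to 350 bp size range, and replicate 3 a source in the submitting laboratory and sonication with a microtip. No second condition and no untagged sample was analysed here, and cells of all types were mixed. GEO numbers the replicates as biological, and with no second group no test between conditions was possible.

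EGL-27 is a relative of the MTA subunits of nucleosome remodelling and deacetylase complexes, and it has been linked to stress resistance and lifespan in C. elegans. In the hypoxia pathway, the prolyl hydroxylase EGL-9 marks the transcription factor HIF-1 when oxygen is present, and VHL-1, the recognition subunit of a ubiquitin ligase, sends the marked protein to degradation. RHY-1, an ER membrane protein, also holds HIF-1 activity down. In the ER, the kinase and endoribonuclease IRE-1 splices the mRNA of the bZIP factor XBP-1, which then induces chaperones. SKN-1, related to mammalian Nrf proteins, drives detoxification genes, and HSF-1 drives heat shock genes.

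The files held a relaxed peak list for each replicate (15286, 30000 and 30000 peaks for replicates 1, 2 and 3), a relaxed list of the pooled replicates (23218 peaks) and the authors' list after the irreproducible discovery rate (IDR) procedure (705 peaks). Relaxed lists keep background by design. The signal of a peak is the height that the authors' caller gave it, and peaks were ranked by it within each list. Signal scales differ between lists, so ranks were compared and signals were not. No source used here gives read depth. All 705 IDR peaks held the same ranks in the pooled list.

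EGL-27 peaks stood at 5 of the 8 genes, namely hif-1, egl-9, skn-1, xbp-1 and ire-1, while vhl-1, rhy-1 and hsf-1 had none in the IDR list. Each of the 5 genes had 1 IDR summit, and in all 5 cases no other protein-coding gene had a closer 5′ end. In the whole annotation 5.37% of protein-coding genes had an IDR summit in the same window. The share was 5.3% of the 14734 genes with windows of 6163 to 17668 bp, the range of the members, without matching of lengths. With the added condition that no other protein-coding gene had a closer 5′ end, the share was 2.77%. Because the 8 genes were chosen with earlier results of these data known, these shares do not test an excess. The count depends on the window. Without the gene body 3 genes (hif-1, egl-9 and ire-1) were counted, with 4.58% of all protein-coding genes. Lost were skn-1, with an intron summit, and xbp-1, whose summit lies only 13 bp inside the gene 5′ end. Only xbp-1 (2.22%) was counted when summits had to lie within 1000 bp before or 500 bp after a transcript 5′ end. Peaks shared by the top 705 of the other replicates stood at hif-1 and egl-9 without replicate 1 (2.31% of genes), at hif-1, xbp-1 and skn-1 without replicate 2 (2.23%), and at hif-1 and skn-1 without replicate 3 (1.9%).

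**Figure D1:**
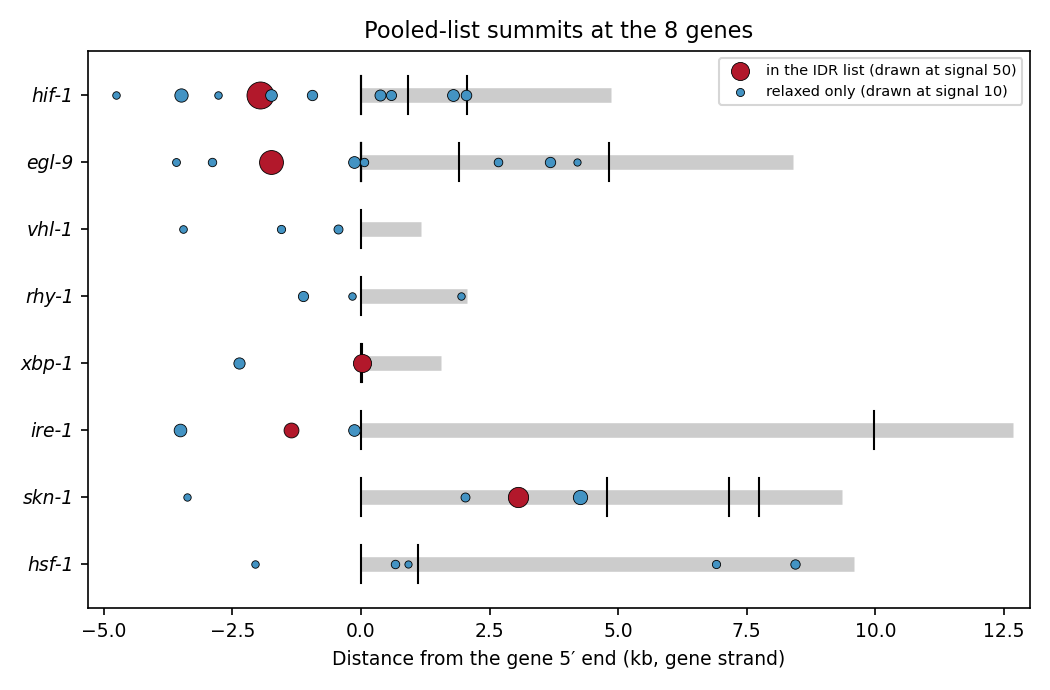
Summits of the pooled list around the 8 genes, with distance from the gene 5′ end in kb on the gene strand. Grey bars are gene bodies, black ticks transcript 5′ ends, red points IDR peaks and blue points relaxed peaks, with the area of a point proportional to signal. The IDR summits of hif-1, egl-9 and ire-1 lie 1956, 1748 and 1366 bp upstream, that of xbp-1 at its 5′ end and that of skn-1 in an intron.

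Sequences at the 5 summits are shown because they hold repeats and short motifs that recur between the genes. They are 281 bp around the summit on the strand of the gene, taken from the WBcel235 genome (RefSeq), which has the ce11 coordinates of the peaks. For xbp-1 only the 150 bp before the 5′ end are shown, and the summit, 13 bp inside the gene, lies outside this stretch. Capitals mark 4 motifs on either strand, namely the repeat GAGAGA, the longer motif CTGCGTCTC, the hypoxia core ACGTG and the bZIP motif TGACGT, so that a match on the opposite strand appears as its reverse complement. The spans are chrV:20778311-20778591, chrV:10466629-10466909 and chrIII:4193659-4193808 on the plus strand, and chrIV:5657196-5657476 and chrII:8126136-8126416 on the minus strand.
hif-1: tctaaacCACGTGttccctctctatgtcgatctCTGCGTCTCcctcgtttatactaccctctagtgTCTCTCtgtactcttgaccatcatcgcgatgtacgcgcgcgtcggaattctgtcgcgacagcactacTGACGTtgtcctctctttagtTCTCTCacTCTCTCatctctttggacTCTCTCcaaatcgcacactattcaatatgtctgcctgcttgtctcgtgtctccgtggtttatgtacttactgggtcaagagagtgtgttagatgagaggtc
egl-9: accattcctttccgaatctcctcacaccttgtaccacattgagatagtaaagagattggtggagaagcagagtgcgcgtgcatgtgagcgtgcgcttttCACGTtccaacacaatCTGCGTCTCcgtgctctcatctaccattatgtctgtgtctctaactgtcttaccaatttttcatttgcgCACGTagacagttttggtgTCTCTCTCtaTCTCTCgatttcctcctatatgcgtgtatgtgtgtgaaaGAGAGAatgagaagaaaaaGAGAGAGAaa
skn-1: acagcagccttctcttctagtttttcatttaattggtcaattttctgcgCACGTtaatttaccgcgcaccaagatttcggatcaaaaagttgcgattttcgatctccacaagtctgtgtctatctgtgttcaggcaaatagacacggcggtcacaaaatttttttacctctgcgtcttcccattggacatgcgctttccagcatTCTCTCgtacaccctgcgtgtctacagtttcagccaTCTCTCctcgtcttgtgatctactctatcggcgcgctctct
xbp-1: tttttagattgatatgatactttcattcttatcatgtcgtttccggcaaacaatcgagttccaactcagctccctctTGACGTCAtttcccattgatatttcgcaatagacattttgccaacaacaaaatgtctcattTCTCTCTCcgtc
ire-1: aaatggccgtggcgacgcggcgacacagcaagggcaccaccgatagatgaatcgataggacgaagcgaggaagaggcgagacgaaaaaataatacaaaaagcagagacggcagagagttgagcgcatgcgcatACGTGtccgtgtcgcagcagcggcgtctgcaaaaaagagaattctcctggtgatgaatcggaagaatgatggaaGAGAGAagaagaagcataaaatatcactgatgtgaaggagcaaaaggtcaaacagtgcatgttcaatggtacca

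The 281 bp windows used for the motifs here and below were chosen after the sequences were seen. All 5 windows of 281 bp held GAGAGA on either strand, as did 65.9% of 704 nuclear IDR summits and 22.7% of 22350 relaxed pooled summits outside IDR peaks. In the narrower window of 50 bp on each side, 2 of 5 member summits (hif-1 and xbp-1) held it, against 41.3% and 9.99%. The printed hif-1 sequence has 4 matches and that of egl-9 has 6, which include overlapping matches. CTGCGTCTC, which recurs in worm regions that many factors occupy, was in the 281 bp windows of hif-1 and egl-9, compared with 23% of IDR and 3.48% of relaxed summits. Its centre lay 21 bp from the egl-9 summit and 103 bp from that of hif-1. Whether these peaks lie in such regions was not tested.

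ACGTG, the core of the hypoxia response element to which HIF-1 binds, was in all 5 windows of 281 bp, against 34.2% of IDR and 24.7% of relaxed summits. For xbp-1 the match lies outside the printed stretch. In the planned 101 bp windows egl-9, xbp-1 and ire-1 held it, against 17.2% and 10.1%. With 100 bp on each side skn-1 held it as well, against 27.1% and 18.5%. The hif-1 matches, 130 and 131 bp from the summit, were counted only in the 281 bp window. In ire-1 the centre of the ACGTG match was 5 bp from the summit. The E-box CACGTG, which contains ACGTG on both strands, was in the hif-1 window alone among the 5, at 281 bp (13.5% of IDR summits).

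TGACGT, part of the sites that bZIP factors such as XBP-1 recognise, was in the 281 bp windows of hif-1 and xbp-1, against 13.8% of IDR and 9.97% of relaxed summits. In the hif-1 window it lay 4.5 bp from the summit. In the xbp-1 promoter the matches on opposite strands overlap. GATAA, to which the family of zinc finger proteins named for it binds, was in 1 of the 5 windows at 281 bp (xbp-1), where 36.5% of IDR and 48.3% of relaxed summits had it. GTCAT, part of SKN-1 sites, was also in that of xbp-1 alone (36.5% of IDR summits and 37% of relaxed ones). No other form of the SKN-1 site was searched. The heat shock element half-site pair TTCNNGAA was in none of the 5, and in 8.95% of IDR and 17% of relaxed summits. These letters are a description of the windows and do not identify sites.

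Among the 8 genes, hif-1 and egl-9 carried the strongest peaks of the pooled list, although in replicate 1 the egl-9 peak was the weakest of the 5. At hif-1, gene WBGene00001851 on chromosome V at 20780407 to 20785260, the IDR peak spanned 20778256 to 20778645, with a signal of 112.2 and rank 15 of 705. The same peak ranked 55 in replicate 1 (signal 18.6), 93 in replicate 2 (28.1) and 7 in replicate 3 (70.5). It was thus within the top 705 of every replicate, the only one of the 5 to be so, compared with 28.1% of all IDR peaks. The summits in the replicates lay 17, 76 and 5 bp from the IDR summit. Of all protein-coding genes, 0.0801% had a stronger pooled summit in their window.

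Around hif-1 the relaxed pooled list placed 10 summits, or 10.1 per 10 kb of window, where the median gene had 1.77. A higher density in that list was found at 0.240% of genes. The strongest of the other summits lay 3497 bp upstream (signal 27.2, pooled rank 990), and it ranked 3014, 19941 and 692 in replicates 1, 2 and 3. Another lay 1785 bp inside the gene (21.6, rank 1648), between the 5′ ends of the shorter isoforms at 912 and 2065 bp. The summit 3497 bp upstream had a pooled -log10 q of 2.36, and the one inside the gene had 1.78. The value 2.36 is the highest of the pooled list, and 1250 of the 23218 pooled peaks share it, among them all IDR peaks. In replicate 1 a summit at 1776 bp inside the gene ranked 535, and in replicate 2 a peak there ranked 14147. Neither summit was in the top 705 of more than 1 replicate. The weakest of the 10 pooled summits ranked 18702 and 18920 of 23218, with -log10 q of 0.0480 and 0.0465. In the lists of replicates 1, 2 and 3 the hif-1 window held 3, 8 and 7 summits. The longer windows of egl-9 and ire-1 held 7, 6 and 9, and 6, 7 and 12. Densities in the replicate lists were not compared with those of all genes.

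At egl-9, WBGene00001178 on chromosome V at 10468517 to 10476915, the IDR peak spanned 10466574 to 10466963, with a signal of 87.5 and rank 52. In replicates 1, 2 and 3 it ranked 1187 (signal 6.33), 172 (22.6) and 10 (63.9). Replicate 1 was thus the low library here and did not hold the peak in its top 705. The peak overlaps F22E12.9 and F22E12.10, a pair of annotated non-coding RNAs on opposite strands, both of which contain the summit. The next pooled summit lay 144 bp upstream of the 5′ end, at a signal of 21.3 and rank 1706.

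The other hypoxia genes had relaxed summits only. At vhl-1, WBGene00006922 on chromosome X at 11307356 to 11308518, the strongest pooled summit lay 453 bp upstream with a signal of 12.5 and rank 7443 of 23218. Its strongest summits in replicates 1, 2 and 3 ranked 9789, 8348 and 27261, at 3 different places. At rhy-1, WBGene00012324 on chromosome II at 9161379 to 9163448, the strongest pooled summit lay 1118 bp upstream (rank 3607). The strongest in replicates 1, 2 and 3 ranked 1589, 13340 and 2414, at 126, 1271 and 980 bp upstream. A gene with a relaxed pooled summit had a median best rank of 7144, so vhl-1 was near that median and rhy-1 somewhat stronger.

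**Figure D2:**
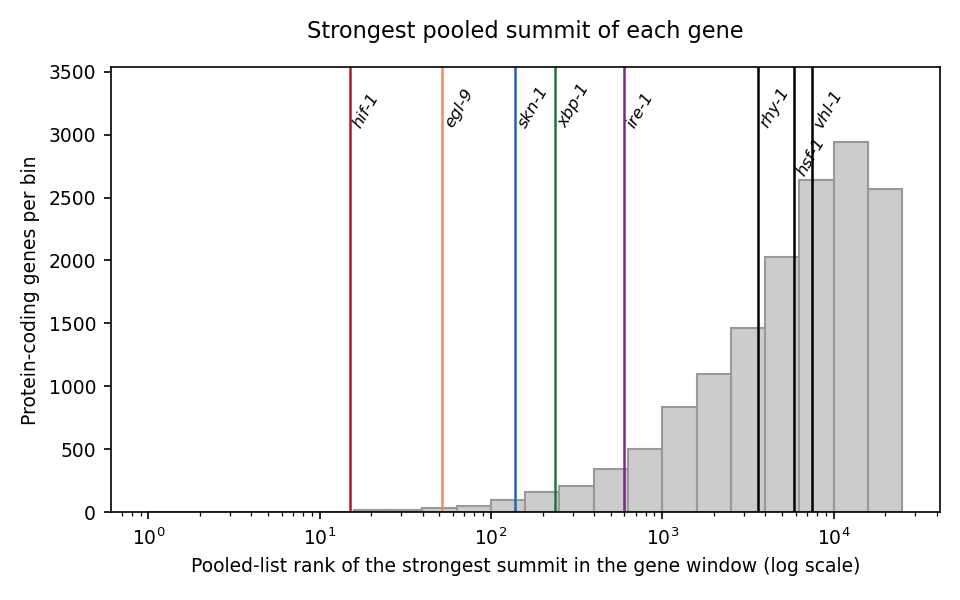
Histogram of the pooled-list rank of the strongest summit in each protein-coding gene's window, on a log axis, with the 8 genes as vertical lines. The lines of hif-1, egl-9, skn-1, xbp-1 and ire-1 (ranks 15 to 602) lie in the sparse left tail, and rhy-1, hsf-1 and vhl-1 (3607, 5909 and 7443) among the bulk of genes.

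Both unfolded protein genes had an IDR peak. At xbp-1, WBGene00006959 on chromosome III at 4193809 to 4195358, the summit lay 13 bp inside the 5′ untranslated exon and 1 bp from the 5′ end of a second transcript. The peak spanned 4193627 to 4194016, with a signal of 50.6 and rank 238. In replicates 1, 2 and 3 it ranked 676 (signal 7.72), 9514 (6.96) and 121 (35.3). Replicate 2 stood apart, and its strongest summit in the xbp-1 window lay 2356 bp upstream (rank 2407), nearer to the 5′ end of dnj-16. A pooled summit 2369 bp upstream, also nearer to dnj-16, ranked 2142.

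At ire-1, WBGene00002147 on chromosome II at 8112243 to 8124910 on the minus strand, the IDR peak spanned 8126081 to 8126470, with a signal of 34.0 and rank 602. It ranked 1040, 824 and 2005 in replicates 1, 2 and 3, with signals of 6.60, 13.7 and 10.7. No replicate held it in its top 705, which was true of 5.96% of IDR peaks. A further pooled summit 3515 bp upstream ranked 1239 (24.5) and was 327 in replicate 1 and 1821 in replicate 3, while no peak of replicate 2 contained it. The ire-1 peak was the weakest of the 5 and the only one outside the stronger 352 IDR peaks.

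The skn-1 peak lay inside the gene, between the starts of alternative isoforms. At skn-1, WBGene00004804 on chromosome IV at 5651039 to 5660384 on the minus strand, the IDR peak spanned 5657141 to 5657530 (signal 62.9, rank 139). Its summit lay in an intron of the longest transcript, T19E7.2a.1, 3048 bp from the gene 5′ end and 1731 bp before the start of T19E7.2c.1. The peak ranked 406, 2572 and 59 in replicates 1, 2 and 3, with signals of 9.24, 10.2 and 45.8. Its summit also lies in the annotated non-coding RNA T19E7.26.

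A second skn-1 summit stood just outside the IDR list, at rank 715 and a signal of 31.4, where the lowest IDR signal was 31.5. It lay in the same gene, 521 bp upstream of the start of T19E7.2c.1, at 5655931 to 5656320. It ranked 505 in replicate 1, 497 in replicate 2 and 7321 in replicate 3. The replicates thus ordered the pair differently, with the IDR summit ahead in replicates 1 and 3 and the other ahead in replicate 2.

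At hsf-1, WBGene00002004 on chromosome I at 11953507 to 11963085 on the minus strand, the strongest pooled summit lay 8429 bp inside the gene in an intron, with a signal of 13.6 and rank 5909. The strongest summits in replicates 1, 2 and 3 ranked 1739, 9198 and 9127 and lay 651, 8395 and 6236 bp inside the gene. The position of the strongest summit thus differed between libraries. A stronger pooled summit was found at 32.8% of genes. All 8 members had a relaxed pooled summit, and so did 75.2% of protein-coding genes.

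The replicates placed these genes among their own strongest peaks to differing degrees. Among the 705 strongest peaks of each replicate, summits were at 4 members in replicate 1 (hif-1, xbp-1, ire-1 and skn-1), 3 in replicate 2 (hif-1, egl-9 and skn-1) and 4 in replicate 3 (hif-1, egl-9, xbp-1 and skn-1). The mean was 3.67 ± 0.577 (SD, n = 3). The same lists had a summit in the window of 4.88%, 5.37% and 4.88% of protein-coding genes. Both hif-1 and skn-1 were present in all 3 lists, but in replicate 2 the skn-1 summit was the one 4258 bp inside the gene and not the IDR summit. For ire-1 in replicate 1, the summit was the one 3554 bp upstream, nearer to ulp-4, and not the IDR summit.

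Of the 5 IDR peaks, 4 had their best rank in replicate 3 and ire-1 had its best in replicate 2. Among the 591 IDR peaks found in all 3 lists, 41.5% ranked best in replicate 3. Median ranks of IDR peaks were 446, 472 and 376.5 in replicates 1, 2 and 3, and in replicate 3 the ranks of hif-1, egl-9, skn-1 and xbp-1 (7, 10, 59 and 121) were better than the lower quartile of 174.25. The ire-1 peak, at 2005, was worse than the upper quartile of 700.25. With 5 peaks, and with source and sonication labels that differ between replicate 3 and the others, the replicate and its preparation cannot be told apart.

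**Figure D3:**
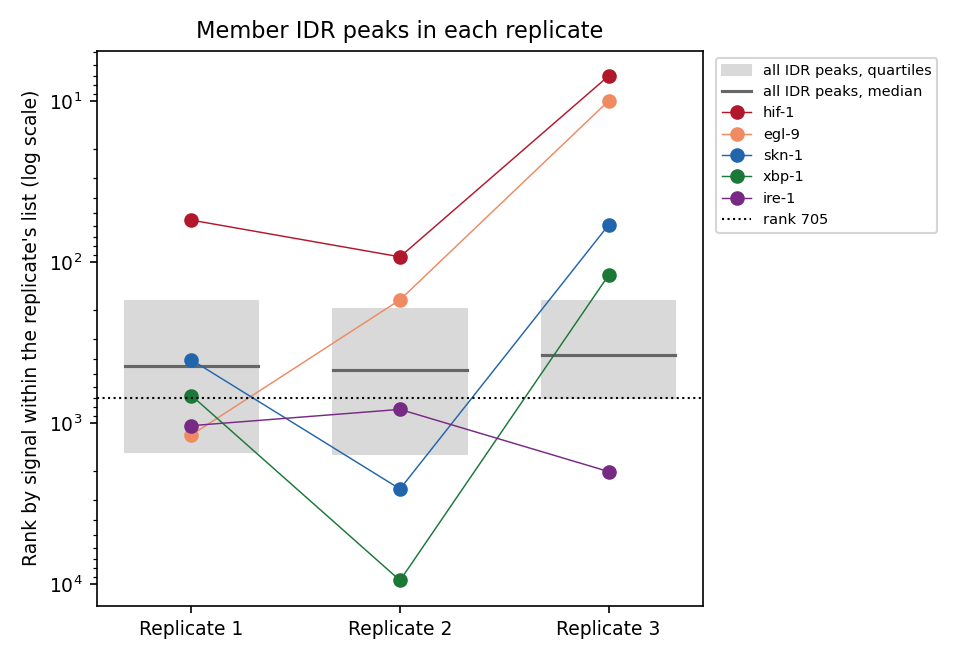
Rank of the 5 IDR peaks in each replicate's own list, on a log axis with the strongest at the top, and thin lines that link the same peak. Grey boxes span the quartiles of all IDR peaks, with a line at the median, and the dotted line is rank 705. The hif-1 peak lies above the line in each replicate, ire-1 below it in each, and xbp-1 ranges from 121 to 9514.

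The 5 member summits were also placed by their distance from the gene 5′ end. Of the 5 gene and summit pairs, 3 lay 1000 to 2000 bp upstream, 2 inside the gene and 0 within 1000 bp upstream. Over all 1186 pairs the shares were 15.2%, 18.7% and 32%, and the remaining 34.1% lay farther upstream. The xbp-1 summit, counted as inside the gene, lay 13 bp from the gene 5′ end. Among protein-coding genes, the gene itself had the nearest 5′ end in 5 of 5 member pairs and in 52.6% of all pairs. By ranks in the 3 replicates, the IDR peaks most like that of hif-1 were near epn-1 (ranks 110, 103 and 8), mtm-3 (120, 66 and 11) and pqn-41 (34, 37 and 5). Their distances from hif-1 were 0.310, 0.419 and 0.475 in log10 rank over 3 replicates, among 591 peaks.

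Among other genes of the same pathways, the ER list had the most genes that were the nearest to their own summit. The lists were chosen with earlier results of these data known, so the shares below do not test an excess. Over 84 pathway genes in 5 lists, 17 (20.2%) had an IDR summit in the window, compared with 5.37% of protein-coding genes. For 9 (10.7%, against 2.77%) no other protein-coding gene had a closer 5′ end. The numbers were 4 of 15 for hypoxia, 5 of 18 for ER unfolded protein, 4 of 25 for oxidative stress, 2 of 17 for heat shock and 2 of 9 for mitochondrial unfolded protein. Under the nearest-gene condition they were 1, 4, 2, 1 and 1. The total was 11 with 2000 bp upstream, where the share of all protein-coding genes was 3.56%, and 6 among the stronger 352 IDR peaks, where it was 2.72%. It was 5, 7 and 6 without replicate 1, 2 and 3, where the shares of all genes were 2.31%, 2.23% and 1.9%.

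The ER genes closest to a summit encode chaperones and folding enzymes. Other chaperone and folding genes of the same list had no IDR summit, namely hsp-4, cnx-1, pdi-1, pdi-2, ero-1, dnj-7 and dnj-27. The BiP gene hsp-3 had a summit 69 bp upstream (signal 75.1, rank 77), and the protein disulfide isomerase gene pdi-6 had one 21 bp upstream (58.2, rank 171). For enpl-1, which encodes the GRP94 homologue, the summit lay 24 bp upstream (37.8, rank 490), and for the calreticulin gene crt-1 it lay 374 bp upstream (36.6, rank 521). The pdi-6 peak was in the top 705 of each replicate (ranks 241, 191 and 280), whereas that of hsp-3 ranked 141, 1110 and 64. The crt-1 peak ranked 150, 485 and 1580, and that of enpl-1 131 and 193 in replicates 1 and 3, with no peak in replicate 2. The fifth gene, atf-4, had a summit 2732 bp upstream (rank 687) that lay closer to T04C10.3.

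In the hypoxia list only the nuclear receptor gene nhr-49 had a summit with no nearer protein-coding gene, 318 bp upstream (signal 35.0, rank 577). That peak ranked 1985, 1644 and 459 in replicates 1, 2 and 3. The summits counted for cysl-1 (57.6), cysl-2 (35.7) and ethe-1 (31.9) lay 2559 to 4189 bp upstream and closer to ZC506.1, dhs-8 and C33A12.3. The cysl-1 peak ranked 335, 666 and 108 in replicates 1, 2 and 3, and the cysl-2 peak 8615, 296 and 574. The ethe-1 peak ranked 722 and 441 in replicates 1 and 3, with no peak in replicate 2. Among oxidative stress genes, wdr-23, whose product targets SKN-1 for degradation, had a summit 28 bp upstream (37.9, rank 486). The wdr-23 peak ranked 789 and 478 in replicates 2 and 3, with no peak in replicate 1. The forkhead factor gene daf-16 had a summit 423 bp upstream (34.9) and another in an intron (33.3). The upstream peak ranked 1250, 877 and 860 in replicates 1, 2 and 3, and the intron peak 509, 12545 and 270. The summits of gsk-3 (50.3) and prdx-2 (31.7) lay 3282 and 4732 bp upstream, closer to Y18D10A.4 and agt-2. The gsk-3 peak ranked 236, 245 and 239 in replicates 1, 2 and 3. The prdx-2 peak ranked 560 and 1096 in replicates 2 and 3, with no peak in replicate 1.

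Among heat shock genes, hsp-1, an HSC70 gene, had a summit 419 bp upstream (signal 76.0, rank 74) that ranked 143, 126 and 102 in replicates 1, 2 and 3. The summit in an intron of hsp-90 (78.6, rank 68) was closer to the 5′ end of C47E8.4, and it ranked 40, 41 and 863. In the mitochondrial list, the summit of atfs-1, the transcription factor of that response, lay 95 bp inside the gene (32.6, rank 663). That of hsp-60 (39.7, rank 432) lay closer to Y22D7AL.10. The atfs-1 peak ranked 2087, 9622 and 1005 in replicates 1, 2 and 3, and the hsp-60 peak 1257, 190 and 1316.

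**Figure D4:**
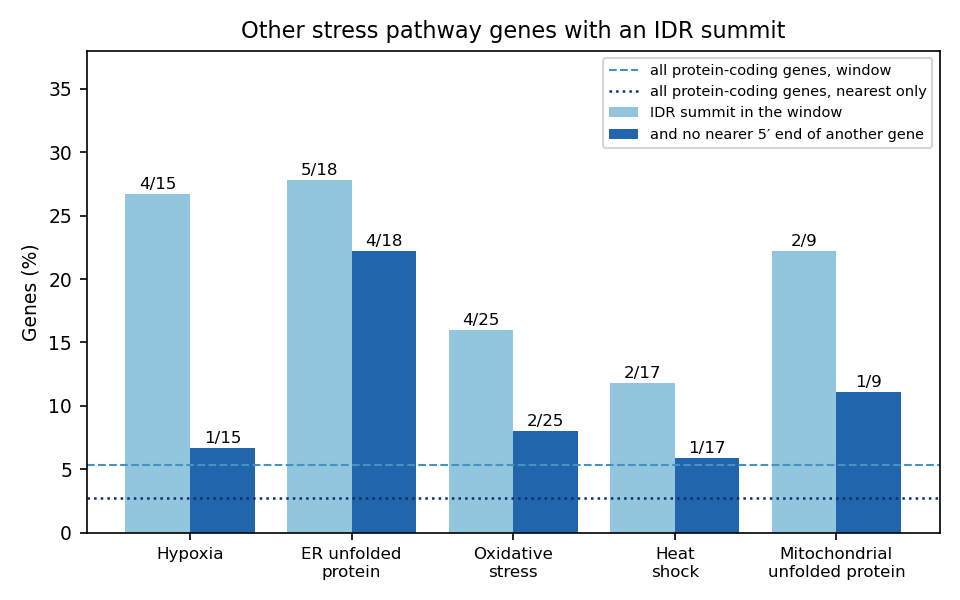
Share of pathway genes (%) with an IDR summit in the window (light bars) and with no nearer 5′ end of another protein-coding gene (dark bars), with counts above the bars. The dashed and dotted lines are the same shares over all protein-coding genes, 5.37% and 2.77%, and the ER unfolded protein list has 5 of 18 and 4 of 18.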

How the data were processed

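EGL-27 ChIP-seq was measured in 3 biological replicates of 1 group. The authors deposited narrowPeak lists in ce10 and ce11, and the ce11 lists were used. Per the library notes, each replicate list came from its alignment and a further file, and the IDR list from the pooled and replicate lists. Aligner, peak caller and IDR threshold are named in no source used here. The peak signal was deposited by the authors in column 7, and the -log10 q-value was deposited in column 9, which has many ties and was not used for ranking. Ranks followed signal, with ties broken by position. Genes came from Ensembl release 115 (WBcel235), with peak ends inside its chromosome lengths. A peak counted for a gene when its summit lay in the window, and a replicate peak matched when it contained the IDR summit. Motifs were searched on both strands. Of 87 pathway genes, 84 matched the annotation. Named genes were all members, every pathway gene with an IDR summit, the nearest gene of each summit and the 3 peaks most like that of hif-1. Members and lists were chosen with earlier results of these data known, and the printed 281 bp windows after the sequences were seen. Set tests were not used, and the window search was checked on simulated data. Scripts ran in Python 3.11.15 with numpy 2.4.6 and matplotlib 3.10.9. Lists in ce10 were not analysed here.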

Additional observations from a re-analysis of the deposited data

How the results depend on the processing

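Of 37 alternative values of the main results, 18 stayed within 1.5 times. Without the gene body, 3 members and 3 summits were counted in place of 5 and 5, and 4.58% of all protein-coding genes in place of 5.37%. The members lost were skn-1, with an intron summit, and xbp-1, whose summit lies only 13 bp inside the gene 5′ end. Within 1000 bp before or 500 bp after a transcript 5′ end, 1 member, 1 summit and 11 pathway genes were counted, with 2.22% of all genes. The 17 pathway genes became 11 with 2000 bp upstream (3.56% of all genes), 9 with the nearest 5′ end only (2.77%) and 6 among the 352 strongest IDR peaks (2.72%). When any replicate was left out, 2 to 3 members, 2 to 3 summits and 5 to 7 pathway genes were counted. That setting keeps 260 to 326 peaks, so its counts are lower by construction, and the share of all genes was 1.9% to 2.31%. Matches of the 8 motifs at member summits rose from 7 to 13 with 100 bp on each side and to 17 with 140 bp, the latter a window chosen after seeing the data. The count of members stayed at 5 with 2000 bp upstream, any peak base or the nearest 5′ end only. With the 352 or 1410 strongest peaks per replicate, the mean was 2.67 or 4.67 members. Ranking by the score column was not run, since its value is the same in every row. No paired analysis was possible because there is 1 group. Read depth was not given, which limits what a missing peak at vhl-1, rhy-1 or hsf-1 can show.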
